A study of Mus musculus with 2 samples.

Results

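The replication-dependent histone genes of mouse myotubes were examined for CpG methylation after transfection with control siRNA (siCon) or with siRNA targeting H19, a long non-coding RNA (siH19). Members were all genes whose GENCODE vM21 symbol begins with Hist1h, Hist2h, Hist3h or Hist4h, which gave 70 of 55413 annotated genes. They comprised 64 somatic protein-coding genes, 3 testis variants (Hist1h1t, Hist1h2aa and Hist1h2ba) and 3 pseudogenes (Hist1h2aj, Hist1h2al and Hist3h2bb-ps). The values came from CpG cytosines that had at least 5 reads in each library, lay outside MspI and TaqαI sites, and fell in a gene body or within 1 kb of its annotated start (the start window). Such cytosines numbered 603 at 374 CpGs, of 1850635 compared across the genome.

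Both groups were myotubes differentiated in culture from mouse C3H myoblasts and harvested 48 h after transfection; they differed only in the siRNA. Methylation was read by reduced representation bisulfite sequencing, in which DNA cut by MspI (CCGG) and TaqαI (TCGA) is size-selected and treated with bisulfite, so that unmethylated cytosine is read as T. Each group was 1 library, from cells of 1 myoblast source, so each test below compares 2 libraries and not 2 conditions, and the knockdown and any difference between cultures cannot be told apart. The labelled cell type could not be checked against expressed markers in DNA data. The siCon library held 5453019 cytosine entries with a median depth of 12 reads, and the siH19 library 5266846 with a median of 13. At the members' compared cytosines the median depths were 26 and 24 reads.

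Replication-dependent histone genes encode the bulk of the core histones H2A, H2B, H3 and H4 and of linker histone H1, the proteins on which DNA is wound in the nucleosome. They lie in clusters, are transcribed mainly in S phase, carry no introns as a rule, and give mRNAs that end in a conserved stem-loop in place of a poly(A) tail. A few family members are made in the male germ line: Hist1h1t encodes the testis linker histone H1t, and Hist1h2aa and Hist1h2ba encode the testis variants TH2A and TH2B.

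Of the 64 somatic members, 51 had a CpG-rich start. The members formed 10 genes on chromosome 3 (Hist2h), Hist4h4 alone on chromosome 6, 3 genes on chromosome 11 (Hist3h), groups of 24 and 31 genes on chromosome 13 (Hist1h), and Hist1h2al apart from them on the same chromosome. They differed in the promoter letters searched from 250 bp before to 50 bp after the start, on both strands. TATAAA was present in 54.7% of somatic members against 17.1% of all genes, and CCAAT in 82.8% against 38.4%. By class, CCAAT was in at least 80% of the H1, H2A, H2B and H3 genes but in 4 of 13 H4 genes (30.8%). The octamer ATTTGCAT was found in 35.3% of the 17 H2A and 41.2% of the 17 H2B genes, in none of the H1, H3 and H4 genes, and in 2.24% of all genes. Head-to-head H2A and H2B genes can share promoter letters, so the same octamer can count for both, as in Hist2h2ac and Hist2h2be. AAACACA, searched as the H1 box, was in 3 of 5 somatic H1 genes against 8.80% of all genes. None of these motifs contains another, and a match is a description of letters and not a binding site. The 16-base hairpin held by most somatic members (6 paired bases on each side of a 4-base loop, sense strand) was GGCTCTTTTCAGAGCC, with the stem-loop letters of histone mRNA ends. It was found at the annotated gene end of 23 of 64 somatic members and of 27 of 55413 genes in all; within the body and 150 bp on each side it was found in 40 of the 64. Of the testis variants, 1 of 3 held it there.

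The contrast on which the results turn is shown by coding stretches of a testis variant beside a somatic gene of its class. Sequences are from the GRCm38 genome, read 5′ to 3′ on the gene's strand, and capitals mark the CpGs compared in the libraries. The first pair is the testis H2A gene Hist1h2aa (chr13:23934552-23934671, plus strand) and the somatic H2A gene Hist3h2a (chr11:58954818-58954937, plus strand), both in the coding exon.
Hist1h2aa: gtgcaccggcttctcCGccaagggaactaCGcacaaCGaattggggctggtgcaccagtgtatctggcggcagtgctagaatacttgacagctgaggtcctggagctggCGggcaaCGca
Hist3h2a: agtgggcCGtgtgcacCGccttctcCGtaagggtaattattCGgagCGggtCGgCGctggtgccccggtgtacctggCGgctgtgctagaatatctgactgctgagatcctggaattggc
In the Hist1h2aa stretch, methylation was 87.6% in siCon (95% Wilson interval 82.9 to 91.1, 249 reads over 10 cytosines) and 91.5% in siH19 (86.6 to 94.7, 188 reads). In the Hist3h2a stretch it was 0.693% (0.270 to 1.77, 577 reads over 14 cytosines) and 1.32% (0.695 to 2.49, 683 reads). Intervals here and below cover counting error only, and a read that spans several cytosines is counted at each of them.

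The second set is the testis H2B gene Hist1h2ba (chr13:23933997-23934156, minus strand) with the somatic H2B genes Hist2h2bb (chr3:96269752-96270051, plus strand) and Hist3h2ba (chr11:58948940-58949099, plus strand), each from its first coding base.
Hist1h2ba: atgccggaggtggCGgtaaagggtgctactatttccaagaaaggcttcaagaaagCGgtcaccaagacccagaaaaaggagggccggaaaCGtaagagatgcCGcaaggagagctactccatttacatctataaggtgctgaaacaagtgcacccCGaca
Hist2h2bb: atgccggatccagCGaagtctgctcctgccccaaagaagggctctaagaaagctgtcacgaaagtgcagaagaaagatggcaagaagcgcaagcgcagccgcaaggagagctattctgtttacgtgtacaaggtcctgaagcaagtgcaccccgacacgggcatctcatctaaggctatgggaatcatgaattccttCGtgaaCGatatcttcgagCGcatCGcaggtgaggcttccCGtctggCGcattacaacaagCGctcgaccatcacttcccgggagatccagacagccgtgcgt
Hist3h2ba: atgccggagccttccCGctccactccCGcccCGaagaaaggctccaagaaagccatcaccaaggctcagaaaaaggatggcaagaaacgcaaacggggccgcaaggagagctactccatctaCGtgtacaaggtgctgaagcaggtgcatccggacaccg
The Hist1h2ba stretch was methylated at 81.6% in siCon (73.5 to 87.6, 114 reads over 7 cytosines) and 76.9% in siH19 (70.1 to 82.5, 173 reads). Hist2h2bb stood at 0.317% (0.0561 to 1.78, 315 reads over 11 cytosines) and 0.450% (0.0796 to 2.51, 222 reads). Hist3h2ba lay between them, at 18.5% (11.9 to 27.6, 92 reads over 8 cytosines) and 17.4% (11.0 to 26.4, 92 reads).

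The testis variants Hist1h2aa and Hist1h2ba stand head to head, and their start windows held the same 17 cytosines, all of them coding. Pooled over these, the level was 85.7% in siCon (81.7 to 88.9, 363 reads) and 84.5% in siH19 (80.4 to 87.9, 361 reads), a difference of -1.19 points (95% interval -6.40 to 4.03; Fisher's exact test with Benjamini-Hochberg adjustment over all start windows, adjusted p = 0.870). Thus the interval leaves room for a fall or a rise of several points. Of all windows tested, 14.9% were above 50% in both libraries, and of protein-coding ones 6.99%. Hist1h2aa had a CpG-rich start and Hist1h2ba did not. By gene body, Hist1h2aa was at 87.6% and 91.5% and Hist1h2ba at 81.6% and 76.9%, so they differed in opposite directions, and neither passed the test over all gene bodies (Fisher's exact test, adjusted p = 0.356 and 0.539). Single cytosines ranged from 64.0 to 100% in siCon and from 42.1 to 100% in siH19, and 16 of the 17 were above 50% in both libraries. The exception was the plus-strand cytosine 14 bp into Hist1h2ba, with 5 of 7 reads methylated in siCon and 8 of 19 in siH19. None of the 17 passed an unadjusted p of 0.05. The third variant, Hist1h1t, whose start was not CpG-rich, had 42 CpGs outside restriction sites in its start window and no read at any such cytosine, so no level was obtained.

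The coding sequences were alike enough for some of the same CpGs to be read in a testis and a somatic gene. Hist1h2aa shared between 76.0 and 85.3% of aligned bases with the 17 somatic H2A genes, and Hist1h2ba between 82.8 and 89.4% with the 17 somatic H2B genes. The Hist1h2aa coding sequence held 25 CpGs and the somatic H2A ones 34 to 45, whereas Hist1h2ba held 28 and the somatic H2B ones 25 to 36. At coding position 106, Hist1h2aa was methylated at 96.4% in siCon (28 reads) and 86.4% in siH19 (22 reads), and Hist3h2a at 2.47% (81 reads) and 3.85% (104 reads). At position 127 the levels were 85.7% and 86.4% in Hist1h2aa, and 0% of 41 reads and 1.85% of 54 reads in Hist3h2a. The 2 cytosines paired with these on the other strand gave the same order, with 91.3 to 100% in Hist1h2aa and no methylated read in Hist3h2a in either library. At coding position 14, Hist1h2ba was at 64.0% and 71.4% while the aligned Hist2h2bb cytosine was at 0% of 62 and 0% of 26 reads. The aligned Hist3h2ba cytosine was at 9.09% of 11 and 12.5% of 8 reads. On the other strand, Hist1h2ba was at 71.4% of 7 reads in siCon and 42.1% of 19 in siH19. There Hist2h2bb was at 0% of 33 and 5.56% of 18 reads, and Hist3h2ba at 8.33% of 12 and 0% of 15.

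**Figure D1:**
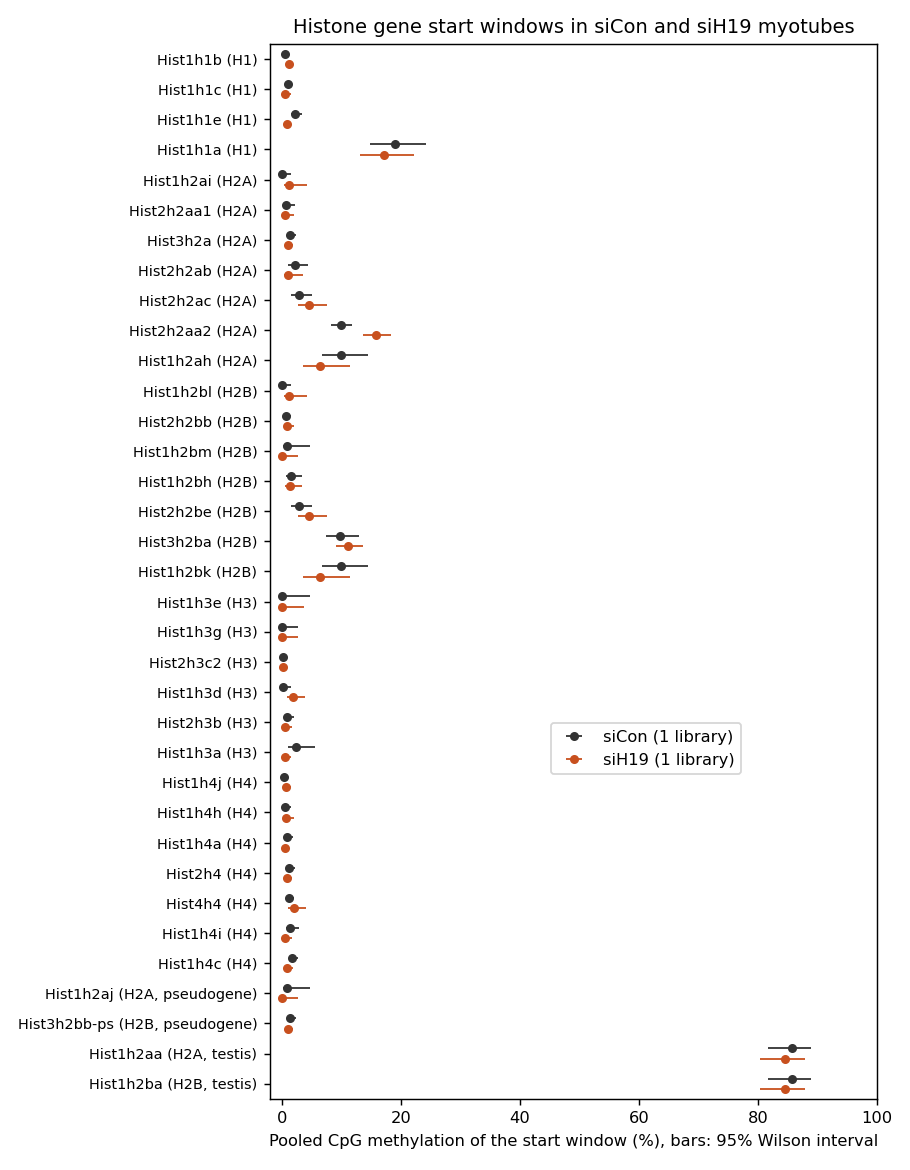
Pooled CpG methylation (%, x axis) of the start window of each of the 35 members with at least 5 compared cytosines, ordered by group and histone class; black points are the siCon library, orange points the siH19 library, and bars are 95% Wilson intervals of the reads. The 31 somatic windows reach at most 19%, and both testis variants, which share their cytosines, lie at 85.7% and 84.5%.

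Outside restriction sites, the somatic members carried little methylation. Over 585 cytosines their pooled level was 3.57% in siCon (3.31 to 3.84, 18555 reads) and 4.14% in siH19 (3.86 to 4.43, 18423 reads), against 25.6% and 25.1% over all cytosines compared in the genome and 5.58% and 5.77% in start windows of other protein-coding genes with a CpG-rich start. Unlike the last of these values, the somatic level also covers gene bodies and members without a CpG-rich start. With the restriction-site cytosines kept, the pooled somatic level was 20.3% in both libraries. No methylated read was seen in either library at 341 of the 585, and 517 were below 10% in both. Of the 31 somatic start windows with at least 5 compared cytosines, 26 (83.9%) were below 5% in both libraries, compared with 51% of all 19476 windows and 70.6% of the 10096 windows of protein-coding genes with a CpG-rich start. The median somatic window stood at 1.23% in siCon and 0.890% in siH19, beside 1.38% and 1.36% for the CpG-rich protein-coding windows. In the 303 coding cytosines of somatic members the pooled level was 2.10% and 2.42%.

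No methylated read was seen in the windows of the H3 genes Hist1h3g (141 reads in siCon and 135 in siH19) and Hist1h3e (79 and 100 reads), over 6 cytosines each. Among protein-coding members with at least 10 compared window cytosines, the lowest 5 were H3, H4, H2A and H2B genes. Hist2h3c2, an H3 gene on chromosome 3, was at 0.110% in siCon (909 reads) and 0.117% in siH19 (857 reads). The head-to-head genes Hist1h2bl and Hist1h2ai share 10 cytosines, which were at 0% of 260 reads in siCon (Wilson upper limit 1.46%) and at 1.18% of 170 reads in siH19. All 10 lie in surroundings that occur more than once in the bisulfite-converted genome, so reads could come from another copy. Hist1h4j was at 0.353% and 0.637%, and Hist1h4h at 0.540% and 0.716%. The intervals of the siCon and siH19 values overlapped in each of these genes. The H4 gene Hist1h4a, which had the most CpGs in its start window of its class (131), was at 0.818% (611 reads) and 0.486% (1234 reads) over 45 cytosines. Its 250 bases before the start (chr13:23761231-23761480, minus strand) are shown as an example of a CpG-rich promoter of low methylation (1.08% in siCon and 0.359% in siH19, with single cytosines up to 18.2% and 3.85%), with capitals for the compared CpGs.
Hist1h4a: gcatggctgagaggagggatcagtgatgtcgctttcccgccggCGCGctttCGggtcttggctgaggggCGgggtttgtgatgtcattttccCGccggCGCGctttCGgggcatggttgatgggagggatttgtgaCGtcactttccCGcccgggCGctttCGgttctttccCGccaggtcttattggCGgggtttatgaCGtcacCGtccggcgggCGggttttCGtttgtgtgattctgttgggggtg

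By class, the H3 genes were lowest, with 0.651% in siCon and 0.475% in siH19 over 78 cytosines. The linker histone H1 genes stood at 1.94% and 1.64% over 158 cytosines, H4 at 2.79% and 2.99% over 186, H2A at 4.27% and 5.86% over 110, and H2B at 8.61% and 10.8% over 129. Class medians over start windows were closer together, between 0.184 and 2.14% in siCon and between 0.296 and 1.34% in siH19. The methylated stretches described below lay in H1, H2A, H2B and H4 genes. Of the methylated H2A reads, 95 of 159 in siCon and 141 of 187 in siH19 came from the stretch upstream of Hist2h2aa2. Of the methylated H2B reads, 130 of 273 and 141 of 341 came from the Hist1h2be body. The pooled order of the classes therefore rests in part on single genes. Many H2A and H2B genes lie in head-to-head pairs and share cytosines, hence their values are not separate measurements. In the H1 class, Hist1h1b was at 0.507% and 1.26%, Hist1h1c at 0.959% and 0.567%, and Hist1h1e at 2.23% and 0.890%. Hist1h1a, named after its values were seen, was the exception at 19% (14.8 to 24.2, 268 reads) and 17.2% (13.1 to 22.1, 268 reads) over 9 cytosines.

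Methylation of at least 20% in either library was limited to 39 somatic cytosines in 11 genes. It was seen at 5 of 323 cytosines (1.55%) within 250 bp of the start, 4 of 151 (2.65%) at 250 to 500 bp, 14 of 62 (22.6%) at 500 to 1000 bp and 16 of 49 (32.7%) farther away. Of the 14 at 500 to 1000 bp, 10 were in Hist2h2aa2, and without that gene the count was 4 of 52 (7.69%). Of the 16 farthest, 9 were in Hist1h2be, and without it 7 of 35 remained. No cytosine within 500 bp was above 50% in both libraries, against 10 and 12 in the outer bands, or 2 and 6 without Hist2h2aa2 and Hist1h2be respectively. The pooled level in siCon was 0.527% in the 250 bp before the start and 1.08% in the 250 bp after it. These values rest on 99 cytosines of 11 starts and on 225 cytosines of 24 starts. CpG-rich protein-coding starts were at 4.46% and 4.56%. In siH19 the somatic levels were 0.437% and 1.26%, against 4.70% and 4.88%. Between 500 and 1000 bp upstream the somatic level was 18% and 27.7% over 30 cytosines of 6 starts, but 95 of the 121 methylated reads in siCon and 141 of the 152 in siH19 came from Hist2h2aa2 alone. Without that gene the level was 4.85% in siCon and 3.13% in siH19 over 20 cytosines of 5 starts. Between 500 and 1000 bp downstream it was 3.10% and 2.63%, and 1.34% and 0.733% without Hist1h4n, whose 2 cytosines held most of the methylated reads. Between 1000 and 2000 bp downstream it was 23.3% and 23.9% over 37 cytosines of 10 starts, and 16.6% and 18.5% without Hist4h4.

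**Figure D2:**
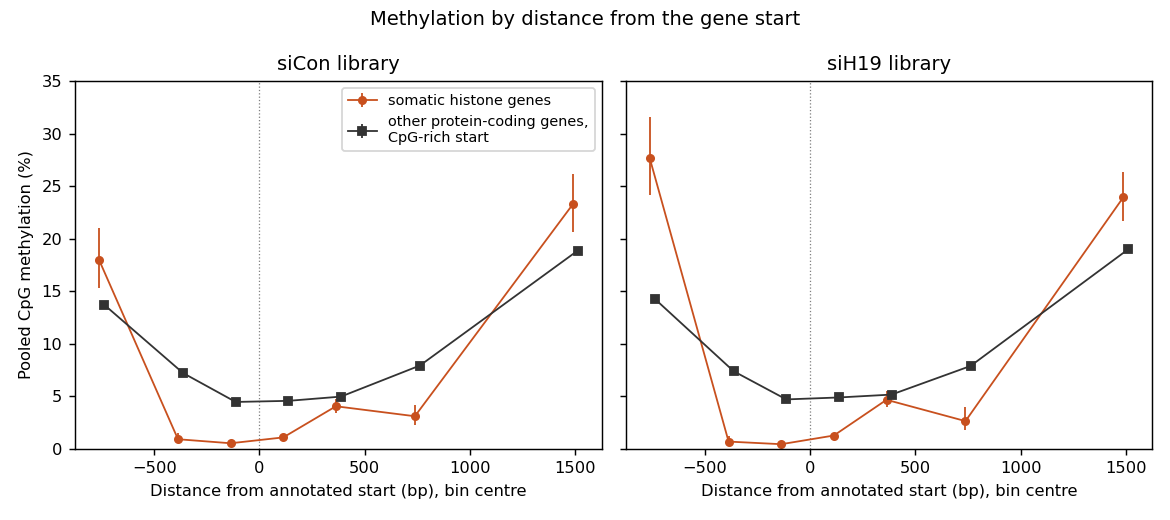
Pooled CpG methylation (%, y axis) against distance from the annotated start (bp, bin centre, x axis) in the siCon library (left) and the siH19 library (right) for somatic histone genes (orange circles) and other protein-coding genes with a CpG-rich start (black squares), with 95% Wilson intervals. The somatic histone genes lie at or below 1.26% in the 250 bp before the start (cytosines of 11 starts) and after it (24 starts). Their points at 18% and 27.7% between 500 and 1000 bp upstream rest on Hist2h2aa2 and are 4.85% and 3.13% without it.

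Of the 39 methylated exceptions, 9 fell in coding sequence, and these were the ones within 500 bp of a start. The rest lay upstream or downstream of the gene, in untranslated exons or in introns. In Hist2h2aa2, an H2A gene on chromosome 3, 10 cytosines at positions -654 to -843 (bp from the start) pooled to 69.3% in siCon (61.2 to 76.4) and 71.6% in siH19 (64.9 to 77.4), and the other 13 in the window to 0.675% and 1.08%. The upstream cytosines lie between genes with respect to Hist2h2aa2 and inside the single exon of Gm20632, annotated as an antisense RNA gene. That stretch (chr3:96240916-96241136, written on the minus strand, that of Hist2h2aa2) is shown as the most methylated promoter-side sequence of a somatic member.
Hist2h2aa2: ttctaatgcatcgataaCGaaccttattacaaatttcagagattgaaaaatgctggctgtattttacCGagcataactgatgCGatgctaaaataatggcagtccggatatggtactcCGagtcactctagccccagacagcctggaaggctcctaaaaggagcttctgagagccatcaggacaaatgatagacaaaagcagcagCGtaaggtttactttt
Its levels ran from 26.3 to 100% in siCon and from 29.2 to 100% in siH19. Thus a nearly unmethylated start and a methylated stretch upstream of it lay less than 1 kb apart in the same start window. The Hist1h4c pair of cytosines at -544 and -545 bp had 7 of 21 and 6 of 16 reads methylated in siCon and 1 of 10 and 3 of 6 in siH19.

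Downstream, Hist4h4, the lone H4 gene on chromosome 6, had 1 methylated CpG in its 3′ untranslated exon (chr6:136803379-136803380), at 72.6% and 80.6% on its strands in siCon and 63.8% and 56.1% in siH19. Hist2h2be, an H2B gene on chromosome 3, had 4 untranslated-exon cytosines beyond 1 kb at 57.4% in siCon (61 reads) and 43.2% in siH19 (74 reads), and its other 15 at 2.82% and 4.48%. In Hist1h2be, whose annotated body runs 37455 bp, 9 intronic cytosines from 18547 to 29720 bp reached at least 20%. Hist1h2bc had 1 intronic CpG at 100% in siCon and 95.8 and 100% on its strands in siH19. Hist1h4n had 1 CpG 930 bp downstream of its start at 88.9 and 93.8% in siCon and 100% in siH19, whose surroundings occur at another place in the genome too.

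Coding methylation was seen in Hist1h1a, Hist3h2ba, Hist1h2bk and a single cytosine of Hist1h4a. In Hist1h1a the CpG 427 bp from the start stood at 38.9% and 46.7% on its strands in siCon and 42.6% and 28.9% in siH19, and the cytosine at 172 bp at 23.8% and 28.6%. In Hist3h2ba the CpG at 51 bp had 6 of 11 and 5 of 12 reads methylated on its strands in siCon and 3 of 8 and 6 of 15 in siH19, and the whole window was at 9.83% (458 reads) and 11.2% (734 reads). Hist1h2bk and Hist1h2ah, which share 6 cytosines, were at 9.96% (231 reads) and 6.41% (156 reads). These 6 lie in surroundings that occur more than once in the converted genome, so reads could come from another copy. Hist1h4a had 1 such cytosine, with 0 of 15 reads methylated in siCon and 1 of 5 in siH19.

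**Figure D3:**
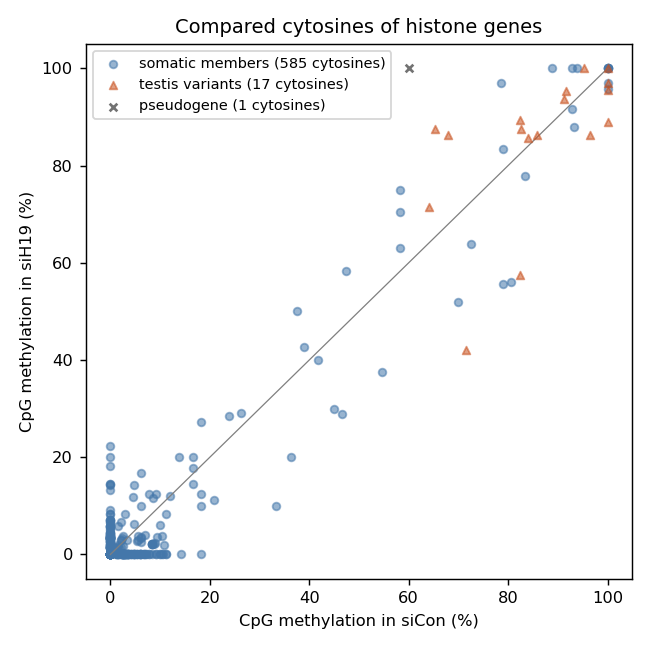
CpG methylation (%) of each compared member cytosine in siCon (x axis) against siH19 (y axis); blue circles are 585 cytosines of somatic members, orange triangles the 17 of the testis variants, the cross 1 cytosine of the pseudogene Hist1h2al, and the line marks equal levels. Most somatic points sit in the lower left corner, where 517 are below 10% in both libraries, and 16 of the 17 testis points lie above 50% in both.

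Along chromosome 13 the somatic members were less methylated than the rest of the cluster spans, which also hold other genes. Over all clusters, 17 of 22 tested start windows of other genes in the spans (77.3%) were below 5% in both libraries. Some of these windows share cytosines with members. In the first cluster 99 of 104 somatic cytosines (95.2%) were below 10% in both libraries and 2 were above 50% in both, whereas of 413 in the rest of its span 149 (36.1%) were below 10% and 111 (26.9%) above 50%. In the second cluster 236 of 262 somatic cytosines (90.1%) were below 10%, against 14 of 72 (19.4%) in the rest of the span. Pooled over all clusters, the rest of the spans stood at 31.3% in siCon (30.5 to 32.2) and 32.9% in siH19 (32.0 to 33.8) over 489 cytosines. The testis pair lies at the far end of the second cluster and had 16 of 17 cytosines above 50%.

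**Figure D4:**
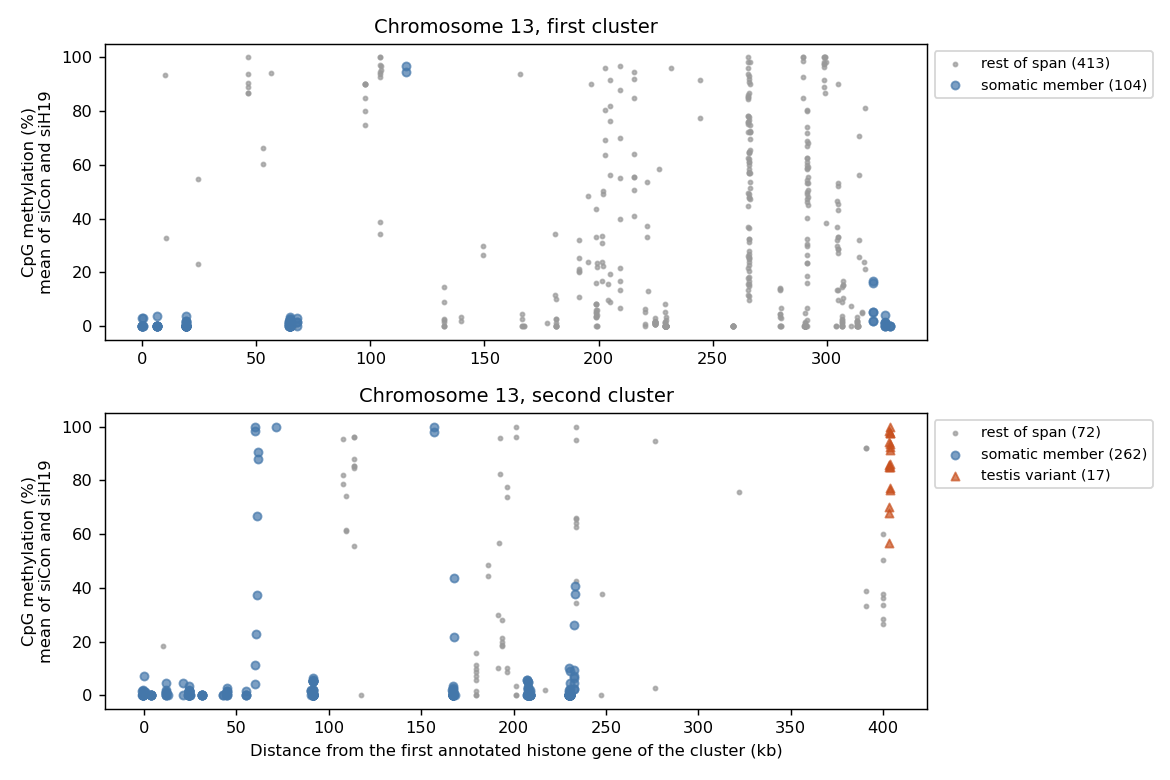
CpG methylation (%, y axis, mean of the siCon and siH19 levels) of compared cytosines along both chromosome 13 histone clusters against distance from the first histone gene of each cluster (kb, x axis); blue circles are somatic members, orange triangles testis variants and grey dots the rest of the span. Somatic members form a row near 0 in both clusters, with 99 of 104 and 236 of 262 below 10% in both libraries, and the testis variants stand at the right end of the second cluster.

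Next, siH19 was compared with siCon. The pooled somatic level was higher in siH19 by 0.568 points (95% interval 0.176 to 0.962), but the mean of the cytosines' own levels was lower by 0.147 points, from 5.25% to 5.11%. When each cytosine was weighted alike in siCon and siH19 the difference was -0.0872 points, so the sign depended on how reads were spread over cytosines. Across the start windows, 13 of 31 somatic members were higher and 16 lower in siH19, with a median difference of -0.107 points. The strands of a window were compared within each library as a rough measure of spread, although they need not be read at the same CpGs. Of 26 somatic windows read on both strands, 1, Hist2h2aa2, had strands apart by at least 10 points in each library. Over all genes, 2099 windows in siCon and 1907 in siH19 did, of 19127 read on both strands. Most somatic windows were below 5% in both libraries, where so wide a gap can hardly arise, so the low count says little about spread.

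No start window of the 35 members tested was called at the threshold used (an adjusted p under 0.05 and 10 points or more between the libraries), where 2.52% of all windows were. Among the 10096 protein-coding windows with a CpG-rich start, 63 were called higher and 32 lower. A window below 5% in siCon cannot fall by 10 points, and 26 of the 31 somatic windows were below 5% in both libraries. Without the size threshold, 2 of the 35 passed the adjusted p (16.8% of all windows did), and 4 had an unadjusted p under 0.05 (28.5% of all windows did). Under the Cochran-Mantel-Haenszel test, which compares the libraries within each cytosine, none passed the adjusted p, as 5.69% of all windows did. Of the 2 that passed by Fisher's exact test, one was Hist2h2aa2, at 9.84% in siCon (1026 reads) and 15.9% in siH19 (938 reads; Fisher's exact test, adjusted p = 0.00108; Cochran-Mantel-Haenszel adjusted p = 0.646). Its methylated upstream stretch held 13.4% of the window's reads in siCon and 21.0% in siH19, and neither the stretch (Fisher's exact p = 0.714) nor the rest (p = 0.427) differed by itself. The other was Hist1h1e, at 2.23% (943 reads) and 0.890% (2136 reads; Fisher's exact test, adjusted p = 0.0334; Cochran-Mantel-Haenszel adjusted p = 0.101).

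Of the remaining named windows, none passed. Those higher in siH19 on both strands were Hist1h1b, by 0.748 points (Fisher's exact test, adjusted p = 0.151), Hist1h4j by 0.284 points and Hist2h2bb by 0.168 points, from 0.696% to 0.864%. Those lower on both strands were Hist1h4c, from 1.75% to 0.871% (Fisher's exact test, adjusted p = 0.326), Hist3h2a, from 1.40% to 0.978%, and Hist2h4, from 1.23% to 0.813%. Each of these differences was smaller than 1 point, with overlapping intervals.

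Among 25 member bodies tested, 1 was called, Hist4h4, higher in siH19, where 8.44% of all bodies were called and 4.90% were higher. Its body was at 6.89% in siCon (1364 reads over 24 cytosines) and 20.5% in siH19 (508 reads; Fisher's exact test, adjusted p = 2.9e-14). The mean of its cytosines' own levels was lower in siH19 by 0.778 points and the Cochran-Mantel-Haenszel adjusted p was 0.597. Split by position, the methylated CpG in the untranslated exon was lower in siH19, at 75% in siCon (65.9 to 82.3, 104 reads) and 61.8% in siH19 (54.0 to 69.0, 157 reads; Fisher's exact p = 0.0313), and the other 22 cytosines were at 1.27% (1260 reads) and 1.99% (351 reads). That CpG held 7.62% of the body's reads in siCon and 30.9% in siH19, which moved with the call. The siCon depth over the 22 near cytosines was 49 to 66 reads against 15 to 17 in siH19. Hist1h1d, at 0% of 570 reads and 1.69% of 532 reads (Fisher's exact test, adjusted p = 0.00526), and Hist1h1e, at 2.49% and 0.913% (adjusted p = 0.00444), passed the adjusted p for their bodies, as 37.4% of all bodies did, but not the size threshold, and neither passed the Cochran-Mantel-Haenszel test (adjusted p = 0.0992 and 0.113; 2.90% of all bodies passed it).

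**Figure D5:**
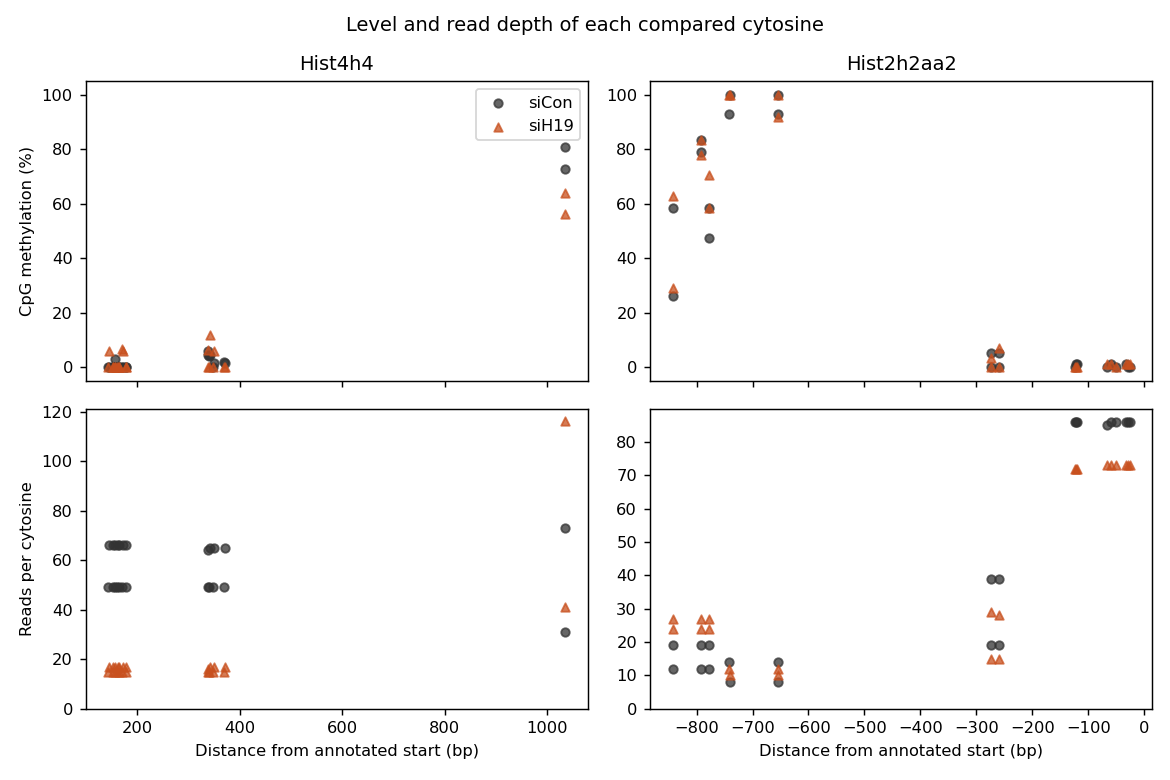
CpG methylation (%, top) and reads per cytosine (bottom) against distance from the annotated start (bp, x axis) for the compared cytosines of Hist4h4 (left) and Hist2h2aa2 (right) in siCon (black circles) and siH19 (orange triangles). In Hist4h4 the far CpG has lower levels but relatively more reads in siH19 (30.9% of the body's reads against 7.62% in siCon), and in Hist2h2aa2 the upstream stretch is methylated in both libraries.

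At single cytosines, none of the 603 was strongly changed, that is with an unadjusted Fisher p under 0.05 and a difference of at least 33 points, where 0.986% of all compared cytosines were. Since most member cytosines were unmethylated, the count was also taken over the 86 that were not below 10% in both libraries: none was strongly changed, against 1.73% of such cytosines in the genome. None passed an adjusted p of 0.05 (0.00648% of all did), and 1 of 603 had an unadjusted p under 0.05 (2.53% of all). This was the minus-strand cytosine of the Hist4h4 CpG, 25 of 31 reads in siCon and 23 of 41 in siH19 (p = 0.0429 by Fisher's exact test). The next lowest on that side were a cytosine 198 bp upstream of Hist1h4a, 4 of 22 and 0 of 22 reads (Fisher's exact p = 0.108), and the cytosine 156 bp into Hist1h2ba, 14 of 17 and 19 of 33 (exact p = 0.117). Higher in siH19, the lowest p-values were 0.0730 in the Hist1h2be intron (11 of 14 and 32 of 33 reads, Fisher's exact test), 0.0952 upstream of the pseudogene Hist1h2al (3 of 5 and 10 of 10, exact) and 0.145 upstream of Hist2h2ab (0 of 74 and 2 of 46, exact).

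Coverage of the family was uneven. Of 8975 member cytosines outside restriction sites in the genome, 603 (6.72%) were compared. The share was 10.6% of 4619 with 51-base surroundings that occur once in the bisulfite-converted genome and 2.57% of 4356 with repeated ones. In 23 members no cytosine could be compared (22 somatic genes and Hist1h1t), and 12 of these had no read at a cytosine outside restriction sites; the median share of repeated surroundings was 66.7% in the 23 and 44.5% in the other 47. Hist1h2bq, which had 120 CpGs around the start, as did Hist1h2br, the most of the H2B genes, and Hist2h3c1, which had the most of the H3 genes (167), were among those without a value, with 100% and 86.9% of their cytosines in repeated surroundings. The H1 gene with the most CpGs, Hist1h1c (84), was covered at 39 cytosines.

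Other genes of the histone supply were set beside the family. Of 13 histone genes outside it, which include replacement histones such as H3f3a and H2afz, 11 windows were tested, 9 were below 5% in both libraries and none was called; the exceptions in level were H1fnt, a testis linker histone gene, at 46.5% and 36.7% (Fisher's exact test, adjusted p = 0.0807), and H2afy2, a macroH2A gene, at 14.3% and 10.8%. Cenpa, the centromeric H3, was at 4.32% and 1.65%. Of 17 genes of histone transcription and mRNA processing, among them Npat, a coactivator of histone genes, and Slbp, the stem-loop binding protein, 16 windows were tested, 14 were below 5% in both and none was called. Cstf2, a cleavage factor on the X chromosome, was at 32.1% and 38.0%. In bodies, 2 of these 17 were called, near the 8.44% of all bodies, and they differed in opposite directions: Pou2f1, the octamer-binding factor, at 27% in siCon and 13% in siH19, and Lsm10, a U7 snRNP subunit, at 27.5% and 39.9%. Of 54 other genes in the cluster spans, 22 windows were tested, and 17 were below 5% in both libraries. Called among the 22 was 1, Gm44456, at 36.0% (189 reads) and 53.9% (89 reads; Fisher's exact test, adjusted p = 0.0391; Cochran-Mantel-Haenszel adjusted p = 0.843), where 2.52% of all windows were. Of their 14 bodies tested, 2 were called in opposite directions, Prss16, a protease gene, at 32.4% in siCon and 51.1% in siH19 (Fisher's exact test, adjusted p = 1.7e-25), and Gm11292 at 21.8% and 4.33% (adjusted p = 4.9e-14, Fisher's exact test). The body calls of Pou2f1, Lsm10, Prss16 and Gm11292 rest on summed reads, as that of Hist4h4 did. No value within cytosines is given for them. By the Cochran-Mantel-Haenszel test, 0.361% of all bodies were called.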

How the data were processed

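CpG methylation was measured in 1 siCon and 1 siH19 library. Per the study's methods, Bismark was run by the authors in non-directional mode within a provider's pipeline; they trimmed filled-in nucleotides and took the level as C over C plus T. Base calls came from bcl2fastq 1.8.4 and the build was mm10 per the labels. The deposited files gave, for each cytosine and strand, a text field in another unit (methylated reads, total reads and rounded percent) and a score on a scale up to 1000 that was used only to check the parsing. Duplicate removal was not given in the sources used here. Positions were checked against GRCm38, and 100% fell on CpGs. Genes were from the GENCODE vM21 basic annotation.

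Cytosines in MspI and TaqαI sites, whose ends are filled in when libraries are made, were left out. Reads were summed over cytosines per region. Regions with at least 5 compared cytosines and single cytosines were tested genome-wide by two-sided Fisher's exact tests with Benjamini-Hochberg adjustment. The exact test was written for this work, with log-gamma values from SciPy 1.17.1, and the code was tested on simulated data. Among 67 coding members, 11 are annotated from the first coding base, so the start can lie inside the transcript. A CpG-rich start had a GC content of 50% or more and a CpG observed/expected value of 0.6 or more in 500 bp. Clusters were split at gaps of 500 kb. Members and lists were chosen with earlier results of these data known. Named members were the testis variants, every called member, those with the highest and lowest levels and the largest differences among genes with at least 10 window cytosines, and the gene with most CpGs per class. Named cytosines had the 3 lowest p-values in each direction. Alternatives were at least 10 reads, restriction sites kept, strands summed, unweighted means, the Cochran-Mantel-Haenszel test, the deepest 1% left out, unique surroundings, a 250 bp window and smaller size thresholds.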

Additional observations from a re-analysis of the deposited data

How the results depend on the processing

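No paired analysis was possible because each group was 1 library, and for the same reason no replicate could be left out. Of 41 recomputed values, 30 gave a difference within the main interval or a like count of calls. The pooled somatic difference of 0.568 points became 0.0592 with restriction-site cytosines kept and -0.147 unweighted, and, in alternatives chosen after seeing the data, -0.0872 with the same weight per cytosine and 0.369 without Hist4h4. The testis difference of -1.19 points turned to 1.01 at 10 reads and 2.28 with restriction sites kept, within its interval of -6.40 to 4.03. The 0 start windows called became 2 of 40 with restriction sites kept (Hist4h4 and Hist1h3f; 1.47% of all windows) and 1 of 35, Hist2h2aa2, at 5 points (5.96% of all). The 1 body called, Hist4h4, became 0 unweighted (0.705% of all bodies) and 0 by the Cochran-Mantel-Haenszel test (0.361%). The 0 strongly changed cytosines became 14 of 916 with restriction sites kept (1.42% of all cytosines) and 1 of 603 at 20 points (1.87%). Restriction-site cytosines raised the pooled somatic level to 20.3% in both libraries. In alternatives chosen after seeing the data, the somatic level between 500 and 1000 bp upstream moved from 18% and 27.7% to 4.85% and 3.13% without Hist2h2aa2. The testis variants rest on 363 and 361 reads over 17 cytosines. The p-values from summed reads are too small because reads span several cytosines.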
